A study of Mus musculus with 6 samples.

Results

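The Gimap genes encode GTPases of immunity-associated proteins, a family described across bone marrow stem cells of wild-type mice and of mice with 1 altered copy of Mecom. Members were all rows of the expression table whose symbol is Gimap followed by a number, which gave 8 of 18465 genes: Gimap1, Gimap3, Gimap4, Gimap5, Gimap6, Gimap7, Gimap8 and Gimap9. RNA came from sorted SLAM-LSK cells, the lineage-negative marrow fraction that carries Sca-1, c-Kit and CD150, lacks CD48 and is enriched for haematopoietic stem cells. The 3 WT libraries came from C57BL/6 mice and the 3 MecomWT:R751W libraries from mice of that strain heterozygous for the R751W allele of Mecom, with no treatment given in the labels and no age or sex. Replicates are labelled as biological, and whether they were separate animals is not stated, so a p-value covers the spread among these samples only, which may be technical.

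Gimap proteins bind guanine nucleotides through a shared domain, sit mostly on the membranes of the endoplasmic reticulum, lysosome, Golgi or lipid droplets, and are best known for keeping lymphocytes alive or letting them die. Their genes lie side by side in 1 cluster and are most active in T cells, B cells and NK cells. In mice, loss of Gimap5 also disturbs the quiescence and survival of haematopoietic stem cells, and Mecom, the gene of the DNA-binding zinc finger protein EVI1, is itself needed to maintain these cells. The family was selected on its TPM difference between these genotypes, so the differences of its members are given as values with no test.

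The cluster spans 124 kb of chromosome 6, from 48647186 to 48770851 in GRCm38, in the order Gimap8, Gimap9, Gimap4, Gimap6, Gimap7, Gimap1, Gimap5 and Gimap3. Gimap6 and Gimap3 lie on the minus strand and the other members on the plus strand. Gaps between neighbouring members ranged from 2401 bp, between Gimap1 and Gimap5, to 15245 bp, between Gimap8 and Gimap9. The GENCODE M21 annotation also places here a read-through gene, Gm28053, from 48718607 to 48752644 over Gimap7, Gimap1 and part of Gimap5, and an antisense gene, Gimap1os, over the start of Gimap1. Neither is a row of the table, and how their reads were counted is unknown.

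The 250 bases before the start site were searched for short motifs of blood transcription factors on both strands, with RefSeq promoters of all 8 members matched on GRCm38.p6. The RUNX letters TGTGGT occurred before 3 members, Gimap4, Gimap7 and Gimap1, and before 14.2% of 27025 genes. The ETS core GGAAGT occurred before Gimap6 and, at separate places, 2 times before Gimap5, and before 20.0% of all genes. The GATA letters AGATAA, held by 10.3% of all genes, were found before 0 of 8 members, as were the letters GAAGATGAG (0.318%) and GACAAGATA (0.115%) that the zinc fingers of EVI1 are known to bind. These motifs can share letters, since GACAAGATA ends with most of AGATAA. The promoters of the 5 members with a match are shown 5′ to 3′ on the strand of the gene, ending 1 base before the start site, with matches in capitals, where ACCACA is the RUNX motif on the other strand. They set Gimap4 and Gimap7, the members with the largest log2 differences between the genotypes, beside Gimap1, Gimap5 and Gimap6. They cover chr6:48684328-48684577, chr6:48718371-48718620, chr6:48738797-48739046 and chr6:48745947-48746196 on the plus strand and chr6:48708245-48708494 on the minus strand.
Gimap4: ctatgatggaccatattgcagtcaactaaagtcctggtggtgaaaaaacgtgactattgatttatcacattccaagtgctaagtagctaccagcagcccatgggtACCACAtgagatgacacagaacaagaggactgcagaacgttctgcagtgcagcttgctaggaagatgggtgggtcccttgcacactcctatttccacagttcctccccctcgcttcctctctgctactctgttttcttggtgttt
Gimap7: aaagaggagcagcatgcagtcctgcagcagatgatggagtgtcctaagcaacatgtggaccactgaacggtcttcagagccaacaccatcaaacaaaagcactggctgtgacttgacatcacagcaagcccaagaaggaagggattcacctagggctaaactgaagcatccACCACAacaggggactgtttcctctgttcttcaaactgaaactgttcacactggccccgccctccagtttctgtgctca
Gimap1: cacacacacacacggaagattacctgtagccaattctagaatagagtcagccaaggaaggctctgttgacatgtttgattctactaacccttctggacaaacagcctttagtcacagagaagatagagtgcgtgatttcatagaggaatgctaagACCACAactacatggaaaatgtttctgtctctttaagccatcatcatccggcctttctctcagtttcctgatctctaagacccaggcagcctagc
Gimap5: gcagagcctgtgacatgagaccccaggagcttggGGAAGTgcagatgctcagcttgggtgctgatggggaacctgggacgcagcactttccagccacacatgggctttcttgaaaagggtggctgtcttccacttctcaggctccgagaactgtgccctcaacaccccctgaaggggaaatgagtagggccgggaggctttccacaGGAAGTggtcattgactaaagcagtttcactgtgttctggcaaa
Gimap6: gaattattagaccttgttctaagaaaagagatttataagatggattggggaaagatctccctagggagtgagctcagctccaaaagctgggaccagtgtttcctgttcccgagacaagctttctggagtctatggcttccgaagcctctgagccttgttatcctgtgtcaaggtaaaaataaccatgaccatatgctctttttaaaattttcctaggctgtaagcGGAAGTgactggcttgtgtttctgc
The RUNX letters stood at base -145 before Gimap4, -79 before Gimap7 and -95 before Gimap1, counted back from the start site to the first base of the match. The ETS letters stood at -25 before Gimap6 and at -216 and -44 before Gimap5. A match is a description of these letters and not a site of binding. The RUNX letters were shared by the members of largest log2 difference, Gimap4 and Gimap7, and by Gimap1, whose difference was near 0.

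Levels were given as TPM (transcripts per 1000000), which correct read numbers for gene length and library size, so members can be compared with each other. Ratios of TPM within a gene implied whole reads, and the implied totals were 10427533 to 12378149 reads per library. Protein-coding genes took 25.87% to 30.11% of TPM in WT and 26.02% to 29.73% in MecomWT:R751W libraries. Markers of the sorted cells were present, among them Slamf1, which encodes CD150, at 9.50 to 16.5 TPM, and Kit at 137 to 198 TPM. Cd48, which the gate selects against, was at 1.02 to 2.18 TPM in the WT libraries and at 2.27 to 4.10 TPM in MecomWT:R751W, so it was higher, with no overlap, in the genotype in which most Gimap members were higher. Its part in their difference was not tested. Mecom itself had a mean of 38.2 ± 4.17 TPM in the WT libraries and one of 45.0 ± 5.53 TPM in MecomWT:R751W (SD, n = 3 each), and a gene total does not show the R751W allele.

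The 8 members fell into 3 tiers of level. Gimap6, which acts in autophagy, and Gimap1, which mature T and B cells need to survive, stood highest, at a mean over the 6 libraries of 173 and 92.6 TPM. They ranked 490 and 932 among all rows and together made up 70.5% to 77.1% of the family's TPM. Gimap9, Gimap5 and Gimap8 formed a middle tier with means of 28.8, 26.0 and 25.9 TPM. Gimap4, Gimap7 and Gimap3 were low, at 6.47, 5.26 and 4.78 TPM, above 44.3%, 39.2% and 37.0% of rows. The tiers did not mix in any library, and 22 of 28 pairs of members kept the same order in all 6. The other 6 pairs were those within the middle tier and within the low tier.

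**Figure D1:**
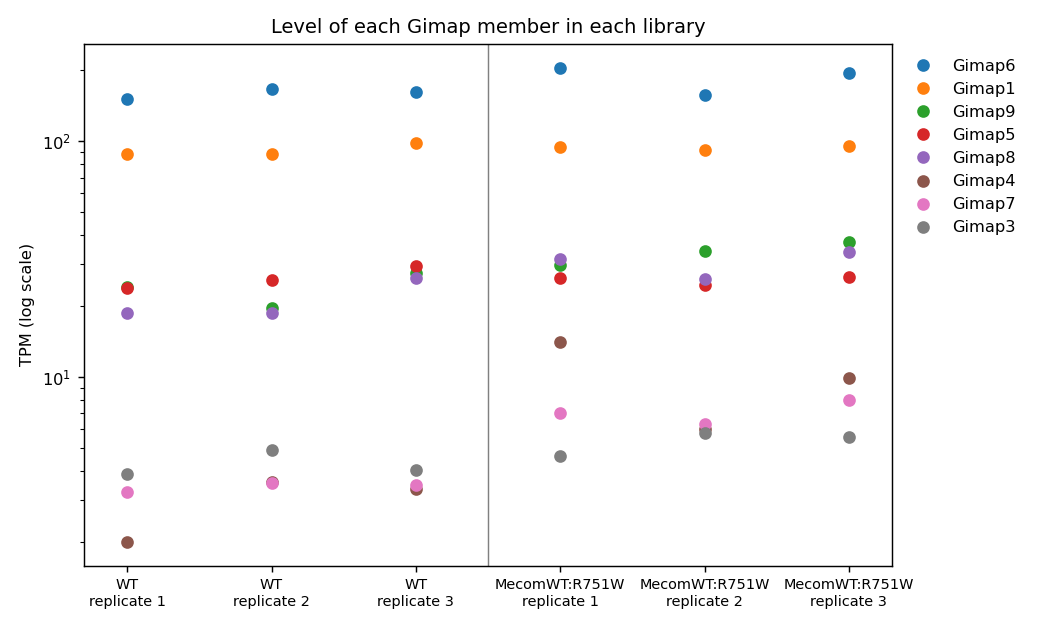
TPM of the 8 Gimap members on a log scale, with 1 point per gene and library, WT on the left and MecomWT:R751W on the right. Gimap6 and Gimap1 are the top 2 in every library, and Gimap3 is above Gimap4 and Gimap7 in WT and below both in MecomWT:R751W libraries.

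The order within tiers differed between the genotypes. Gimap5 was above Gimap8 in 3 of 3 WT libraries and below it in 3 of 3 MecomWT:R751W libraries. Gimap3 was above Gimap7 in 3 of 3 WT libraries and below it in 3 of 3 MecomWT:R751W libraries. Gimap9 and Gimap5 changed places among the WT libraries and did not differ beyond their spread there, while Gimap9 was above Gimap5 in 3 of 3 MecomWT:R751W libraries. Gimap4 and Gimap7, next to each other in mean level, changed places within both genotypes, so they did not keep an order in either.

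Between the genotypes, 7 of 8 members had a higher mean log2 level in MecomWT:R751W cells, and the sizes were unequal. Gimap4, Gimap7 and Gimap9 had all 3 MecomWT:R751W values above all 3 WT values, while Gimap1 and Gimap5 had nearly the same level in both. The count of 3 members wholly above WT stands beside 4.50% of the 16655 genes tested (4.21% of protein-coding genes), and 0 members lay wholly below, beside 4.70%. A difference above 0, as in 7 members, was found for 49.0% of genes, and one of at least 0.5, as in 3 members, for 1.74%. These are the values the family was chosen by. With limma on log2(TPM + 1), 0% of genes had an adjusted p under 0.05, higher or lower, and 457 genes (2.74%) were higher and 538 (3.23%) lower at an unadjusted p under 0.05. The median log2 difference over the 8 members was 0.38, and over all genes tested it was -0.0037. In bulk samples, more cells that express a gene and more RNA per cell cannot be told apart.

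**Figure D2:**
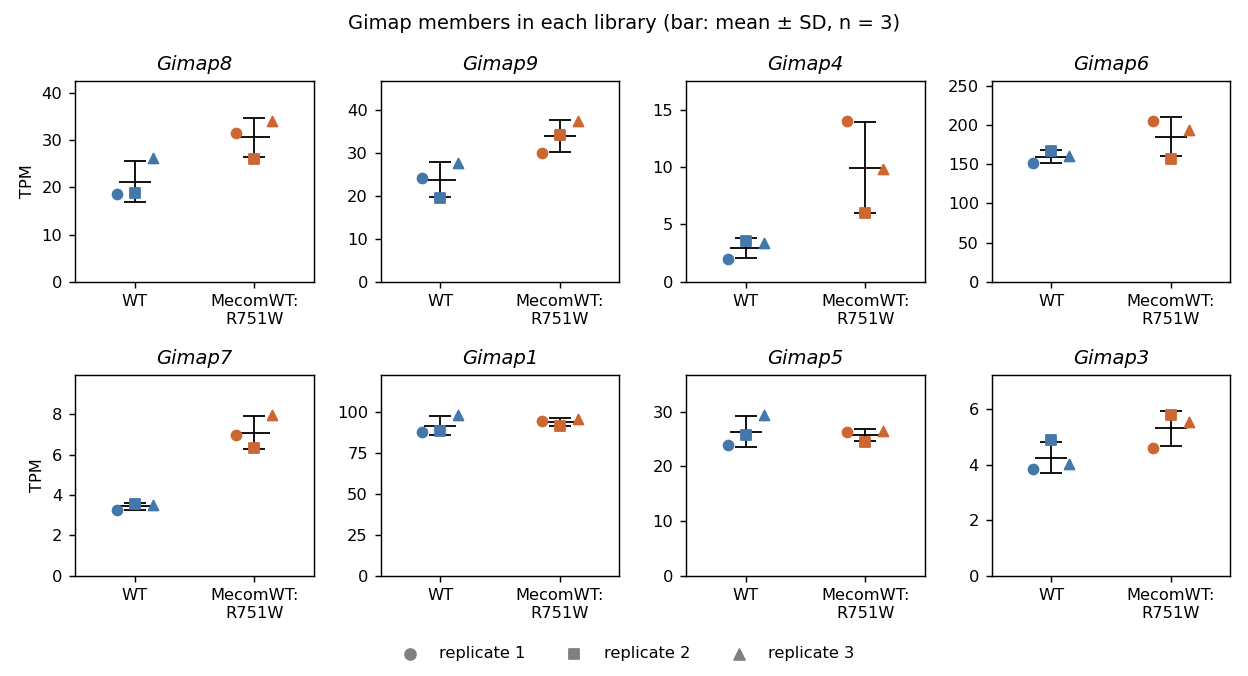
TPM of each Gimap member by genotype, with the 3 libraries as points whose shape gives the replicate number, and a bar for the mean with its SD. Gimap4, Gimap7 and Gimap9 do not overlap between the genotypes, and Gimap8 overlaps by 1 library on each side.

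Gimap4, which speeds the death of T cells in the mouse, had 1.99, 3.56 and 3.35 TPM in WT, in replicate order. In MecomWT:R751W it had 14.0, 6.03 and 9.86 TPM. The lowest MecomWT:R751W library, replicate 2, lay above all WT libraries, and replicate 1 was the highest. The group means were 2.97 ± 0.853 and 9.97 ± 3.99 TPM (SD, n = 3), a ratio of 3.36 and a log2 difference of 1.42 (SE 0.26). The log2 differences of low genes are reduced by the added 1 TPM, and with 0.1 TPM added in its place the difference was 1.68. It was 1.16 without MecomWT:R751W replicate 1 and 1.71 without replicate 2 of that genotype. The levels rested on 132 implied reads summed over WT (95% Poisson interval 110 to 157, counting error only) and 420 over MecomWT:R751W (381 to 462). Among the MecomWT:R751W libraries the reads varied 16.4 times as much as counting error gives, and among the WT libraries 4.83 times.

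Gimap7, whose human counterpart is known to pair with other family members, was at 3.26, 3.55 and 3.49 TPM in WT and at 6.99, 6.33 and 7.97 TPM in MecomWT:R751W replicates 1, 2 and 3. The groups did not overlap, and each was narrow, with a coefficient of variation of 4.48% in WT and 11.6% in MecomWT:R751W. The means were 3.43 ± 0.154 and 7.10 ± 0.826 TPM, a ratio of 2.07 and a log2 difference of 0.87 (SE 0.17). They rested on 106 and 213 implied reads, with 95% Poisson intervals of 86.8 to 128 and 185 to 244. Within each genotype the variance of reads was below that of counting error, at 0.388 and 0.453 times.

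The WT libraries had 24.1, 19.5 and 27.5 TPM of Gimap9 in replicates 1, 2 and 3. The MecomWT:R751W libraries had 29.9, 34.2 and 37.3 TPM. The groups were separated by the gap between 27.5 and 29.9 TPM. The means were 23.7 ± 4.02 and 33.8 ± 3.72 TPM, a ratio of 1.42 and a log2 difference of 0.50 (SE 0.15).

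Gimap8, the largest member with several GTPase domains in 1 protein, was at 18.6, 18.7 and 26.2 TPM in WT and at 31.6, 26.1 and 34.0 TPM in MecomWT:R751W replicates 1, 2 and 3. WT replicate 3 and MecomWT:R751W replicate 2 met at 26.2 and 26.1 TPM, so the groups overlapped by a narrow margin. The means were 21.2 ± 4.34 and 30.6 ± 4.07 TPM, a log2 difference of 0.52 (SE 0.16). Gimap9 was thus the member just inside, and Gimap8 just outside, the line between separate and overlapping groups.

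Gimap6 was at 151, 167 and 161 TPM in WT and at 205, 157 and 194 TPM in MecomWT:R751W replicates 1, 2 and 3. MecomWT:R751W replicate 2 lay among the WT libraries and the other two lay above them. The log2 difference was 0.21 (SE 0.13), 0.13 without MecomWT:R751W replicate 1 and 0.32 without replicate 2 of that genotype. In TPM the means differed by more than those of any other member, 160 ± 7.86 against 186 ± 25.1, and the sum over the family was 333 ± 19.2 TPM in WT libraries and 392 ± 34.8 TPM in MecomWT:R751W. The sums ranged from 315 to 353 and from 352 to 413 TPM, so they overlapped.

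Gimap1 and Gimap5, next to each other on the chromosome, lay closest to 0. Gimap1 was at 87.9, 88.5 and 98.0 TPM in WT and at 94.5, 91.3 and 95.5 TPM in MecomWT:R751W libraries, a log2 difference of 0.04 (SE 0.12). Gimap5, the member tied to stem cell survival in the mouse, was at 23.9, 25.7 and 29.4 TPM and at 26.2, 24.5 and 26.5 TPM, a log2 difference of -0.03 (SE 0.13). WT libraries lay on both sides of the MecomWT:R751W libraries in both genes. The sign for Gimap5 turned when WT replicate 3 (0.05) or MecomWT:R751W replicate 2 (0.01) was left out.

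Gimap3, which affects how mitochondrial DNA variants are sorted in mouse blood cells, was at 3.85, 4.88 and 4.02 TPM in WT and at 4.59, 5.79 and 5.55 TPM in MecomWT:R751W, with overlap and a log2 difference of 0.27 (SE 0.18). Gimap3 and Gimap5 are close copies. Of the windows of 50 bases in their protein-coding transcripts in GENCODE M21, 7.52% of those of Gimap3 and 9.98% of those of Gimap5 also occur in the other gene. Reads from these stretches could have been split, and the 2 genes are uncertain to that extent. For the other 6 members 0 windows of this length are shared within the family.

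Along the cluster, the 4 members with the largest differences, Gimap8, Gimap9, Gimap4 and Gimap7, lay on the side of Gimap8, with Gimap6 (0.21) between them. Gimap1, Gimap5 and Gimap3 at the other end had differences of -0.03 to 0.27. Within 500 kb of the outermost members, 17 other rows were found, of which 12 were protein coding and 16 were tested. None of these passed (limma, smallest adjusted p = 0.672), and the median was -0.01. A difference above 0 was found for 7 of 16, beside 49.0% of all genes tested. At an unadjusted p under 0.05, 1 row was higher, beside 2.74% of all genes tested. That row was Gm5111 (48589445 to 48590584), with means of 3.20 ± 1.31 TPM for WT and 5.18 ± 0.139 TPM for MecomWT:R751W (log2 difference 0.60, SE 0.21). The nearest protein-coding neighbours on the side of Gimap3 were Tmem176b, at 89.4 ± 0.729 and 87.6 ± 13.7 TPM, and Tmem176a, at 40.8 ± 4.14 and 35.2 ± 1.20 TPM. On the side of Gimap8 the nearest were Zfp775 (-0.07) and Repin1 (0.19), both zinc finger genes. Lrrc61 (0.12), Krba1 (0.11), Zfp467 (-0.08), Malsu1 (-0.02), Igf2bp3 (0.03) and Tra2a (-0.30) lay within 0.30 of 0 on the same log2 scale, and Sspo, near 0.1 TPM, was below the filter.

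**Figure D3:**
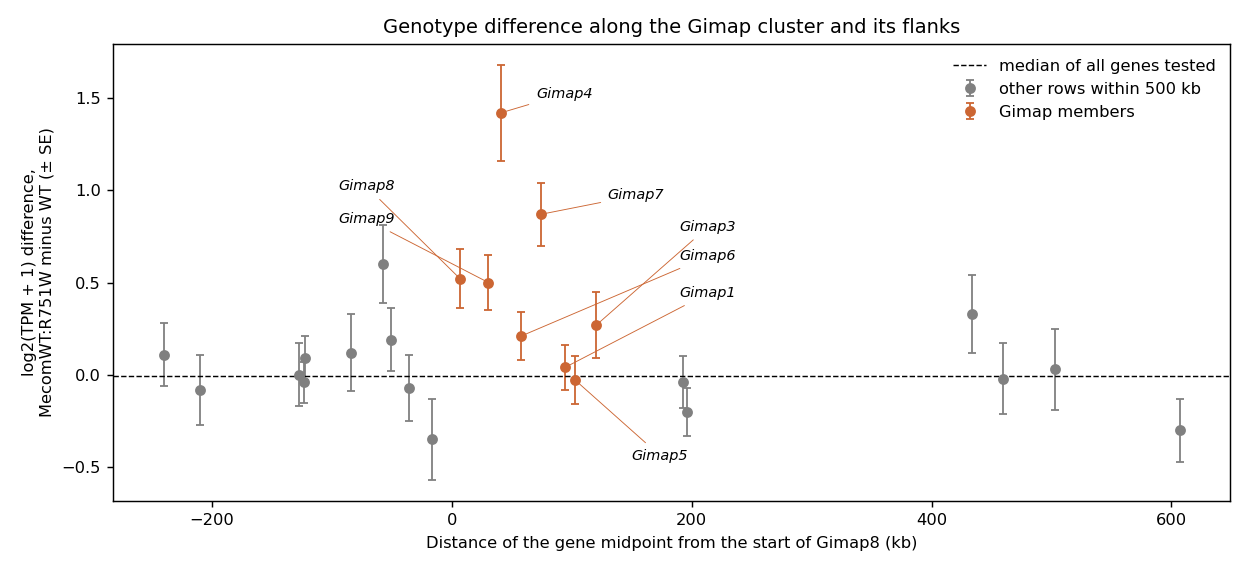
Log2(TPM + 1) difference between genotypes with its SE for Gimap members (orange) and the other tested rows within 500 kb (grey), against the distance of the gene midpoint from the start of Gimap8 in kb. Gimap4 (1.42) and Gimap7 (0.87) stand highest, with Gimap6 (0.21) between them, and the flanking rows have a median of -0.01.

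Among the libraries of 1 genotype, most pairs of members varied in the same direction. On deviations of log2(TPM + 1) from the genotype mean, 20 of 28 pairs of members had a positive correlation over the 6 libraries, with a median r of 0.48 and a range of -0.37 to 0.97. Gimap8 with Gimap1 (0.97), Gimap1 with Gimap5 (0.96) and Gimap4 with Gimap6 (0.95) were the closest pairs, and Gimap3 was negative with 6 of 7. With 3 libraries a genotype, these are descriptions. The TPM values also hold shifts of whole libraries, with median-of-ratios factors of 0.9052 to 1.067, which can move many genes together. The share of positive pairs over all genes was not computed, so the count cannot be read as a trait of the family. Among 8470 other protein-coding genes averaging 5 TPM or more, the 6 most like the mean log2 level of the family over the 6 libraries were Alkbh8 (r = 0.990), Cxcr4 (0.987), Ly9 (0.985), Ncapd2 (0.982), Elof1 (0.979) and Usp54 (0.974). These genes were picked for following a family mean that was itself higher in MecomWT:R751W, so their own separation by genotype was fixed by the choice. Cxcr4, the receptor that holds stem cells in the marrow, was at 14.6 to 19.0 TPM in the WT libraries and at 23.0 to 33.5 TPM in MecomWT:R751W. Ly9, a SLAM family receptor, was at 5.76 to 7.64 and 9.30 to 12.5 TPM. Only 1 to 4 of these 6 genes stayed among the 6 when a library was left out, so the choice rests on single libraries.

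Genes whose products bind or act with Gimap proteins lay on both sides of 0, with 6 above and 12 below. Of all genes tested, 49.0% had a difference above 0. Of 18 genes on this list, all tested, 0 passed the adjusted threshold (limma, smallest adjusted p = 0.786), and the median log2 difference was -0.06. At an unadjusted p under 0.05, 0 were higher and 1 lower, beside 2.74% and 3.23% of all genes tested. That gene was Mcl1, a survival protein of the BCL2 family tied to Gimap5 in mouse stem cells, at 114 ± 17.3 TPM in the WT libraries against 89.7 ± 9.90 TPM in MecomWT:R751W (log2 difference -0.33, SE 0.14), with overlap. Gabarapl2, a protein of autophagy that binds Gimap6, stood at -0.29 (SE 0.17) and its relative Gabarap at -0.21 (SE 0.14). Bcl2l1, which encodes BCL-XL, stood at 0.19 (SE 0.16). Hspa8, a chaperone, stood at 0.13 and Gsk3b, a kinase linked to Gimap5 in T cells, at -0.03. Gabarap, Bcl2l1 and Hspa8 did not overlap between the genotypes, while Gabarapl2 and Gsk3b did.

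Lymphoid transcription factors had 6 of 18 tested genes above 0, and lymphoid priming genes 7 of 8, beside 49.0% of all genes tested. At an unadjusted p under 0.05 (limma), 2.74% of all genes were higher and 3.23% lower. Both lists were chosen with earlier results of these data known, so their counts are a description. Of 26 lymphoid transcription factors 18 were tested and 0 passed (smallest adjusted p = 0.465, limma), with 3 lower and 0 higher at an unadjusted p under 0.05 and a median of -0.04. Those 3 were Klf2, a factor of lymphocyte quiescence, at 17.6 to 38.7 TPM in the WT libraries and at 8.78 to 17.9 TPM in MecomWT:R751W, with overlap, Zbtb16 (log2 difference -0.66) and Runx3 (-0.47). Of 20 lymphoid priming genes 8 were tested, 0 passed (smallest adjusted p = 0.0856), 3 were higher at an unadjusted p under 0.05 and the median was 0.19. These were Flt3, Tespa1 and Cd48, the marker the gate selects against, with log2 differences of 0.96, 1.09 and 0.65. Lsp1, the 1 tested priming gene below 0, stood at -0.25 (SE 0.14), with no overlap. Dntt, the terminal transferase of early lymphoid progenitors, was below the filter, at 0.251 ± 0.130 TPM in the WT libraries against 1.65 ± 0.671 TPM in MecomWT:R751W. The other rows of both lists below the filter were Tcf7 (-0.42, with no overlap and lower in MecomWT:R751W), Lef1 (0.04) and Ccr9 (-0.02).

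Genes of T cells and NK cells, the cells in which Gimap genes are most active, were unequal, with 6 of 7 tested genes above 0 and 3 of these, Nkg7, Cd4 and Thy1, well above the others. Of all genes tested, 49.0% lay above 0, and 2.74% were higher and 3.23% lower at an unadjusted p under 0.05 (limma). This list too was chosen with earlier results of these data known. Of 28 listed genes, 8 were rows of the table and 7 were tested, with 0 past the adjusted threshold (limma, smallest adjusted p = 0.0856), 3 higher at an unadjusted p under 0.05 and a median of 0.22. Their summed level was 37.8 to 38.9 TPM in WT libraries and 48.6 to 57.3 TPM in MecomWT:R751W libraries. Most of that gap lay in Nkg7, a granule protein of cytotoxic cells, at 4.31 ± 0.432 and 11.2 ± 1.48 TPM, and in Lat, an adaptor of the T cell receptor, at 24.6 ± 1.11 and 29.0 ± 4.06 TPM with overlap. Cd4, whose groups overlapped, and Thy1, whose groups did not, had log2 differences of 0.78 and 0.72. The values were 0.22 for Lat, 0.09 for Lck, 0.05 for Cd5 and -0.30 for Cd247, and Klrb1c was below the filter. The defining genes Cd3d, Cd3e, Cd3g, Cd2, Cd8a, Trac, Trbc1 and Trbc2 were not among the 18465 rows, of which the smallest held 18 implied reads over the 6 libraries. The part of such cells in the family's difference was not tested. Of 14 B cell genes 5 were rows, with sums of 21.4 to 32.0 TPM in WT libraries and 21.6 to 22.2 TPM in MecomWT:R751W, and Ms4a1 was not among the rows. For 15 myeloid genes the sums were 113 to 138 and 106 to 138 TPM over 6 rows. For 20 endothelial genes they were 278 to 322 and 266 to 333 TPM over 13 rows, without Cdh5, and Emcn alone had an unadjusted p under 0.05 (log2 difference 0.59).

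Other families of GTPases had medians nearer to 0. Of 19 rows of interferon-inducible GTPases tested, 14 lay below 0 with a median of -0.11, and 0 passed (limma, smallest adjusted p = 0.433). At an unadjusted p under 0.05, 5 were lower and 0 higher, beside 3.23% and 2.74% of all genes tested. Of all genes tested, 49.0% had a difference above 0. Among the interferon-inducible rows Gbp11, Mx1 and Mx2 are annotated as transcribed pseudogenes. Gbp4, a guanylate-binding protein, was at 3.80 to 7.71 TPM in the WT libraries and at 2.08 to 2.70 TPM in MecomWT:R751W. Gbp6 stood at -0.89 (SE 0.28), Gbp10 at -0.79 (SE 0.30), Gbp9 at -0.68 (SE 0.24) and Gbp11 at -0.91 (SE 0.38). Septins, GTPases that form filaments, had a median of 0.07 over 7 tested genes, with 0 past an unadjusted p of 0.05.

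**Figure D4:**
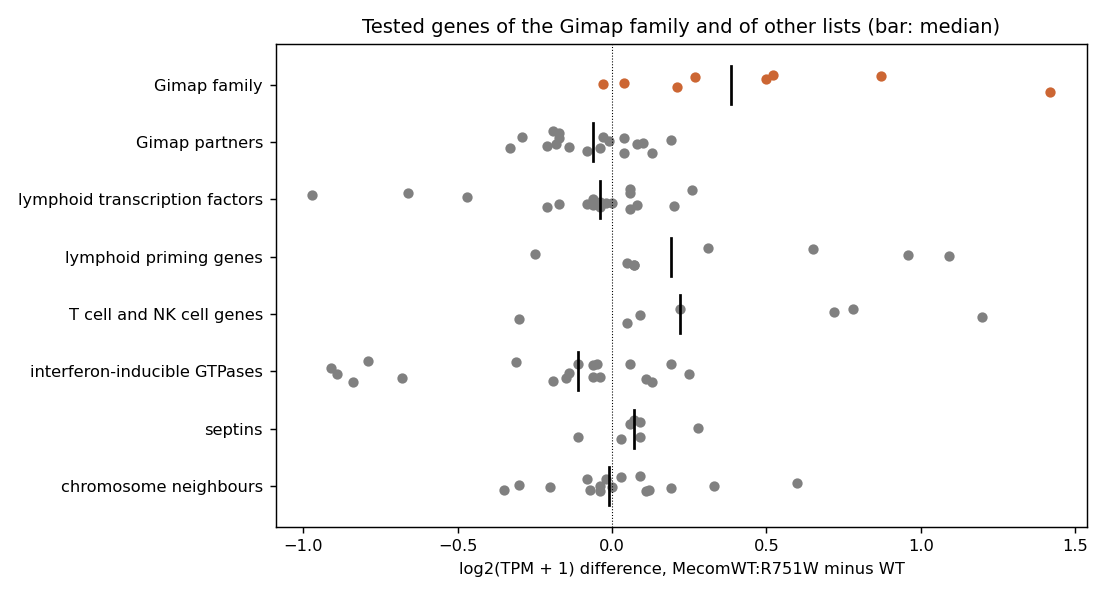
Log2(TPM + 1) difference between genotypes for each tested gene (points) of the Gimap family and of 7 other lists, with a bar at the median. The medians are 0.38 for the Gimap family, 0.22 for T cell and NK cell genes, 0.19 for lymphoid priming genes and between -0.11 and 0.07 for the others.

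When limma was fitted over the 11394 protein-coding genes alone, 0.351% of genes passed as higher and 0.807% as lower. Of the listed genes, Flt3, Tespa1, Nkg7, Cd4, Thy1 and Emcn passed as higher, and Klf2, Gbp4, Gbp6 and Gbp10 as lower. Cd4, Klf2 and Gbp10 passed although their groups overlapped. For Klf2 the adjusted p in this limma fit, 6.67e-05, was below its unadjusted p over all rows, 0.00365. For Gbp6 the values were 0.00162 and 0.00795. The TPM of a gene are the same in both fits, so these calls depend on the set of genes fitted. The lists were chosen with earlier results of these data known, so these calls are no independent evidence for a list. In the fit on implied reads (limma-voom), which called 0.144% of genes higher and 0.156% lower, Flt3 and Tespa1 passed as higher. With protein-coding rows rescaled to 1 total, 0.0645% of genes were called higher and 0.0726% lower, and Flt3, Tespa1 and Nkg7 were among the higher. None of the genes listed as Gimap partners and none of the protein-coding chromosome neighbours tested passed in these 3 fits. The neighbours that are pseudogenes were tested only in the limma-voom fit of these 3, and none passed there.

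**Figure D5:**
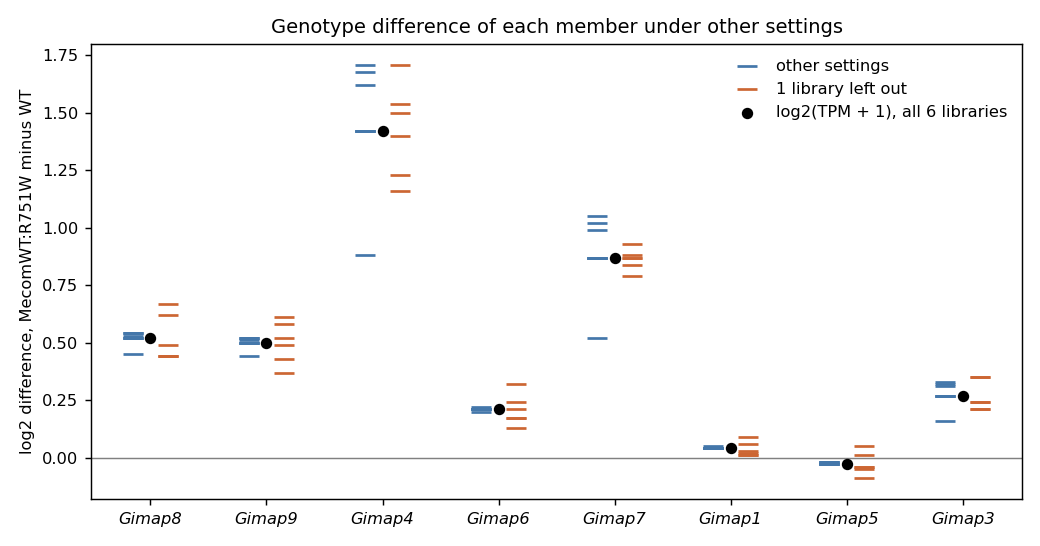
Log2 difference between genotypes of each Gimap member with all 6 libraries (black), under the other settings tried (blue) and with 1 library left out (orange). Gimap4 ranges from 0.88 to 1.71, Gimap7 from 0.52 to 1.05, and Gimap5 lies on both sides of 0.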

How the data were processed

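Per the labels' protocols, 3 routes to a library (rRNA depletion, poly-A selection, low input) were possible, and nothing says which was taken. The values, as deposited by the authors, are TPM (length-corrected reads scaled to 1000000 per library) for 18465 genes. The authors name mm10 and DESeq2, per the submitters' processing notes, with no role stated; the counting program and its strand setting are unknown. All symbols matched RefSeq GRCm38.p6, the same assembly. Whole reads were recovered from TPM ratios for 100.0% of genes (tolerance 0.001 reads), which was tested on simulated data, and the reads describe depth and enter 1 alternative.

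Genotypes were tested by limma 3.58.1 (R 4.3.3, trend option) after log2(TPM + 1), for 16655 genes averaging 1 TPM or more; all 8 Gimap members passed this filter. P-values are two-sided with Benjamini-Hochberg adjustment over all genes. Log2 differences are MecomWT:R751W minus WT. Sums, correlations and figures used Python 3.11.15, pandas 2.3.3 and matplotlib 3.10.9. Named genes were the members, Mecom, gate and T cell markers, protein-coding neighbours within 500 kb, up to 4 genes of smallest p per list and the 6 most alike genes; further genes of the lists, such as Hspa8, Gsk3b, Dntt and Gbp11, were named after their values were seen. The members and lists were chosen with earlier results of these data known. Alternatives changed the pseudocount, filter, scaling, gene set, test and block, and left out each library.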

Additional observations from a re-analysis of the deposited data

How the results depend on the processing

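The median log2 difference of the 8 members stayed between 0.32 and 0.43 under the settings that kept all 8, was 0.50 over the 7 left with a mean of at least 5 TPM, which drops Gimap3 (0.27), and lay between 0.33 and 0.42 with 1 library left out. The count of members wholly above WT was 3 to 5 with 1 library left out, where fewer libraries also make separation easier: leaving out WT replicate 3 gave 5, as did MecomWT:R751W replicate 2. With all 6 libraries kept, the count was 4 under median-of-ratios scaling and with protein-coding rows rescaled, and 3 under the other settings. Of the single members, Gimap4 stood at 0.88 and Gimap7 at 0.52 with a pseudocount of 5, which shrinks low genes.

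Counts of called genes depended on the gene set. They were 0 in the limma fit over all rows, 1 higher and 1 lower with a mean of at least 5 TPM, 40 and 92 over protein-coding rows, 8 and 9 over protein-coding rows rescaled to 1 total, and 24 and 26 with limma-voom. With 1 library left out they were 0 to 6 higher and 0 to 9 lower. Leaving out WT replicate 3 gave the 6 higher, and MecomWT:R751W replicate 1 the 9 lower. Of the listed genes, 1 was called higher at 5 TPM, 6 higher and 4 lower over protein-coding rows, 3 higher after rescaling, 2 higher with voom, and 0 to 2 higher with 1 library left out. The cause was not tested. Of the 6 genes most like the family, 3 stayed with median-of-ratios scaling, 2 after rescaling and 1 to 4 with 1 library left out.

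With the replicate number as a block, 0 genes were called and the median over the members was 0.38. Deviations of same-numbered libraries correlated at 0.140, 0.089 and 0.083 across genes, each the best match of its library, which is a hint from the data and not the design. Protein-coding shares of TPM were also close by number. They were 30.11% (WT) and 29.73% (MecomWT:R751W) in replicate 1, 25.87% and 26.02% in replicate 2, and 28.88% and 28.89% in replicate 3. Whether same-numbered libraries shared a batch is not stated. Depth limits Gimap4, Gimap7 and Gimap3, with 27 to 183 reads a library.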
